A study of Danio rerio with 32 samples.

Results

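Whole zebrafish embryos exposed to folic acid were compared with control embryos in 16 libraries, 8 per group, out of 32 libraries in the series. The 16 were chosen by the treatment ending of the library titles, and the remaining libraries are 8 from embryos given all-trans retinoic acid and 8 from embryos given valproic acid. Polyadenylated RNA was sequenced after a 4 h exposure, from 3 to 7 h after fertilization, a window in which zygotic transcription is under way and gastrulation begins. Per the labels, embryos of every group, folic acid and control alike, were kept in Dutch standard water, a defined mineral medium for fish embryos, with 0.01% DMSO, a solvent. The control therefore differs from the folic acid group in the vitamin alone, as far as the labels say. The series design names folic acid as a negative control beside both teratogens, so the question is how small its effect was. The labels give no dose, no strain and no number of embryos per library, and they are silent on whether replicates are separate clutches, pools or days. P-values and intervals thus rest on library-to-library spread that may be technical only. Numbers in the titles reach 48 and fall into 4 sets of 12. A set holds 2 control and 2 folic acid libraries and was used as a block.

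Folic acid is the synthetic form of vitamin B9. Cells take folates up through a carrier (slc19a1) and a proton-coupled transporter (slc46a1), reduce them with dihydrofolate reductase, and use them to carry one-carbon units. These units feed the synthesis of thymidylate and purines and the remethylation of homocysteine to methionine, the precursor of the methyl donor S-adenosylmethionine. In vertebrates, folate supply is known for its link to closure of the neural tube, which takes place after the stage sampled here.

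No gene was called different between folic acid and control embryos. Of 15710 genes tested, 0 (0%) had an adjusted p under 0.05 in limma with the sets as a block and Benjamini-Hochberg adjustment over all genes, and the smallest adjusted p was 0.72. At an unadjusted p under 0.05 there were 1023 genes (6.51%), of which 536 (3.41%) were higher and 487 (3.1%) lower in folic acid embryos. The median difference over all genes was -0.00083 and the median absolute difference 0.12, both on the log2 scale, on which a difference of 1 is 2-fold. A missing call does not show that a gene was the same in both groups, so the 95% interval of each difference was used to bound it.

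For most genes the interval was narrow enough to set a limit. The whole 95% interval lay within a 2-fold change either way for 13152 genes (83.7%), and within 0.5 either way on the log2 scale for 8693 genes (55.3%). How tight the limit was depended on the level. In the lowest quartile of genes by mean level, from 1.39 to 5.63, the median half-width was 0.79, and 39.9% of genes were bounded within 2-fold. In the second quartile the half-width was 0.39 and 95.7% of genes were bounded within 2-fold. In the third it was 0.23, with 99.4%, and in the highest quartile, above 9.81, it was 0.15, with 99.8%. In that highest quartile 95.6% of genes were bounded within 0.5 on the log2 scale, against 0.458% in the lowest. Of the 91 genes whose difference reached 2-fold in either direction, 84 had a mean level under 5. Widening the intervals to hold for all genes at once, by the Bonferroni method, left 7051 genes (44.9%) within 2-fold and 11840 genes (75.4%) within 4-fold, a log2 difference of 2.

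**Figure D1:**
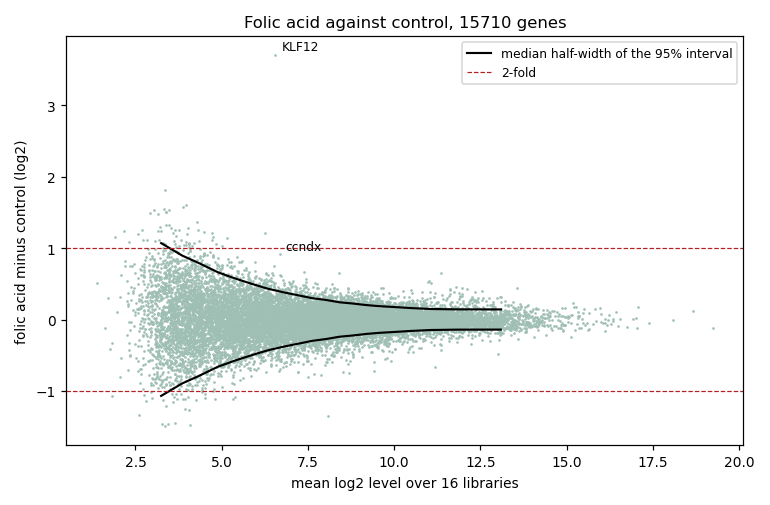
Each point is 1 gene, placed by its mean log2 level over the 16 libraries and by its log2 difference, folic acid minus control. The black lines give the median half-width of the 95% interval in bins of level. It is 0.79 over the lowest quartile of genes and 0.15 over the highest, and the dashed lines mark a 2-fold difference.

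Markers of the labelled stage were present. All 8 listed markers of gastrula embryos had control means of 9.3 to 13.84, all 4 of the enveloping layer (the outer epithelium) 13.25 to 16.2, and 2 of 3 markers of the yolk syncytial layer were measured, at 10.36 and 10.98. All 3 germ cell markers were measured, at 6.84 to 10.83. In bulk RNA of whole embryos, fewer cells of a type and less RNA per cell cannot be told apart. No 2 of the 16 libraries were identical, and their Spearman correlations ran from 0.941 to 0.9879. Library totals cannot be had from the deposited values. As a stand-in for depth, the number of distinct value steps up to the lower-quartile gene ran from 13 to 53 over the 32 libraries. Folic acid replicates 7 and 8, the folic acid libraries with title numbers from 37 to 48, had the fewest steps, 13 and 14. The groups overlapped, with 13 to 46 in folic acid and 20 to 48 in control libraries, and an exact two-sided permutation test within sets of the means, 28.4 and 32.8, gave p = 0.457, or 0.727 adjusted over 5 library measures. The others were genes at the lowest value and principal components 1 to 3 (same test, adjusted p 0.648 to 0.977). On component 2 control replicate 1 stood at -52.4, with the other libraries of both groups between -27.5 and 23.5. On component 1 folic acid replicate 8 was highest, at 61. On component 3 folic acid replicates 7 and 8 lay at opposite ends, at 51.4 and -31.2. The other libraries of both groups were between -13.5 and 9.29 there.

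None of the genes of the vitamin's own pathway was called. Of 77 genes in the 6 folate and one-carbon lists, 68 were measured and 0 were called. At an unadjusted p under 0.05, 2 were higher and 2 lower. The median difference over the 68 was -0.0084, against -0.00083 over all genes, and 64 of them (94.1%) were bounded within 2-fold, against 83.7% of all genes. The 4 that were not bounded within 2-fold were SLC19A1, PIPOX, ADSS2 and MAT1A.

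SLC19A1, the reduced folate carrier, had the lowest difference and the widest interval of the 6 measured uptake and retention genes. Its log2 level ran from 4.19 through a median of 5.52 to 6.21 in control libraries, and from 1.67 through 4.63 to 5.92 in folic acid libraries. The groups overlapped from 4.19 to 5.92. Folic acid replicates 5, 7 and 8, at 3.78, 3.65 and 1.67, lay below all control libraries, and the lowest value came from replicate 8. The difference was -0.998 (95% interval -1.95 to -0.051, limma adjusted p = 0.72). By set the difference was 0.32, -1.204, 0.087 and -3.195, and without the last set, which holds the shallow replicates 7 and 8, it was -0.27. The part of depth in this value was not tested. SLC46A1, the proton-coupled folate transporter, ran from 4.94 through 5.83 to 6.22 in control and from 5.29 through 5.89 to 6.32 in folic acid libraries. These ranges overlapped from 5.29 to 6.22, with a difference of 0.11 (-0.31 to 0.53). FPGS, which adds the glutamate tail that keeps folates inside cells, differed by -0.16 (-0.44 to 0.12), and GGH, which removes that tail, by 0.16 (-0.22 to 0.53). Both gene copies that the table names SLC25A32, the mitochondrial folate carrier, differed by at most 0.033 in size, with intervals of -0.53 to 0.46 for ENSDARG00000026835 and -0.17 to 0.17 for ENSDARG00000089791.

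**Figure D2:**
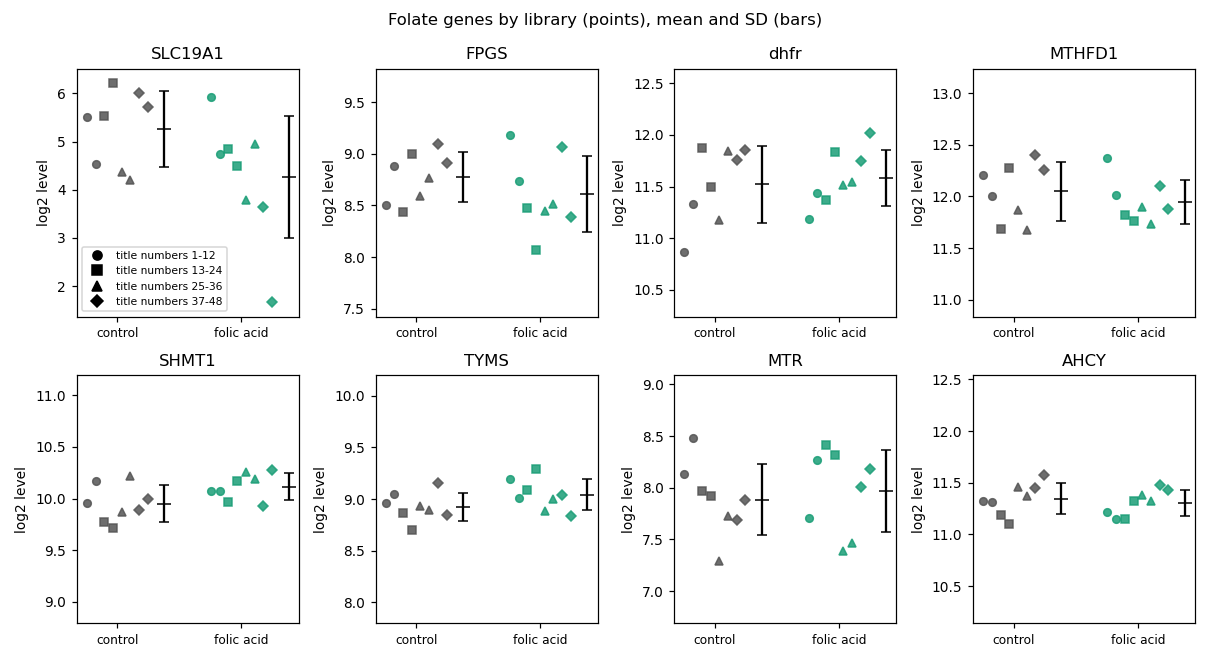
Log2 level of folate genes in each control and folic acid library (points, marker by title-number set), with the mean and SD of 8 libraries as bars. SLC19A1 spans 1.67 to 5.92 in folic acid libraries, and the other genes shown overlap between the groups.

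Cytosolic folate enzymes were bounded closely. The gene dhfr, whose enzyme reduces folic acid to its active form, ran from 10.87 through 11.62 to 11.87 in control libraries and from 11.18 through 11.53 to 12.02 in folic acid libraries. The groups overlapped, and the difference was 0.058 (-0.16 to 0.27). MTHFD1, a trifunctional enzyme that interconverts cytosolic folates, differed by -0.10 (-0.29 to 0.086). SHMT1, the cytosolic serine hydroxymethyltransferase that loads one-carbon units from serine, ran from 9.71 through 9.93 to 10.22 in control and from 9.92 through 10.12 to 10.27 in folic acid libraries. The ranges overlapped, the folic acid mean was the higher one in 4 of 4 sets, and the difference was 0.17 (0.0065 to 0.33, limma adjusted p = 0.72). ALDH1L1, which oxidizes formyl folate in the cytosol, also had the higher mean in 4 of 4 sets, at 0.22 (-0.021 to 0.46). Of all genes, 13.2% had a difference of the same sign in all 4 sets. MTHFS, which returns a stored formyl folate to use, had a wider interval, at 0.34 (-0.27 to 0.94).

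In the mitochondrial folate pathway and the glycine cleavage system, 12 genes were measured, 11 of them were bounded within 2-fold, and none passed even the unadjusted test. SHMT2, the mitochondrial serine hydroxymethyltransferase, differed by -0.072 (-0.35 to 0.21). The gene mthfd2 and MTHFD1L, which act in turn on mitochondrial folates to give formate, differed by -0.075 (-0.29 to 0.14) and 0.026 (-0.18 to 0.24). GLDC, the decarboxylase of glycine cleavage, differed by -0.073 (-0.31 to 0.16). PIPOX, an oxidase of sarcosine and pipecolate, was the exception in width, at -0.58 (-1.74 to 0.58), with folic acid libraries spread from 0.90 to 6.19.

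Thymidylate and purine synthesis held 18 measured genes, of which 17 were bounded within 2-fold. At an unadjusted p under 0.05, 1 was higher and 1 lower. Of the 18, 5 had a value above 0, and 10 without the last set, against 49.9% of all genes over all sets. TYMS, thymidylate synthase, which uses a folate to make the DNA precursor dTMP, differed by 0.12 (-0.064 to 0.30). ADSS2, an adenylosuccinate synthase of purine synthesis, ran from 4.43 through 4.96 to 5.72 in control and from 1.67 through 4.12 to 5.71 in folic acid libraries. The lowest values lay in folic acid libraries and the tops of both ranges were alike. The value of 1.67 came from folic acid replicate 8, a shallow library with 14 value steps, where SLC19A1 had the same value. The part of depth in it was not tested. The difference of ADSS2 was -0.99 (-1.81 to -0.17, limma adjusted p = 0.72), with -2.63 in the last set, and -0.45 without that set.

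In the methionine cycle, where the folate methyl group ends up, 17 genes were measured and 16 bounded within 2-fold. MTR, methionine synthase, differed by 0.084 (-0.19 to 0.35), and MTRR, which reactivates it, by 0.22 (-0.13 to 0.56). The copies that the table names MAT2A, which make S-adenosylmethionine, differed by -0.17 (-0.43 to 0.091) for ENSDARG00000040334 and -0.10 (-0.45 to 0.25) for ENSDARG00000037121. AHCY, which clears the product of methylation reactions, had a tight bound at -0.042 (-0.15 to 0.071). The gene cbsb, a transsulfuration enzyme, differed by -0.050 (-0.21 to 0.11). DNMT1, the maintenance DNA methyltransferase, ran from 11.43 through 11.52 to 11.69 in control and from 11.24 through 11.55 to 11.75 in folic acid libraries, a difference of -0.029 (-0.17 to 0.11). Of 12 measured genes of DNA methylation 0 were called, and 1, mbd2, a reader of methylated DNA, had an unadjusted p under 0.05 at 0.69 (0.099 to 1.29), or 0.44 without the last set.

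**Figure D3:**
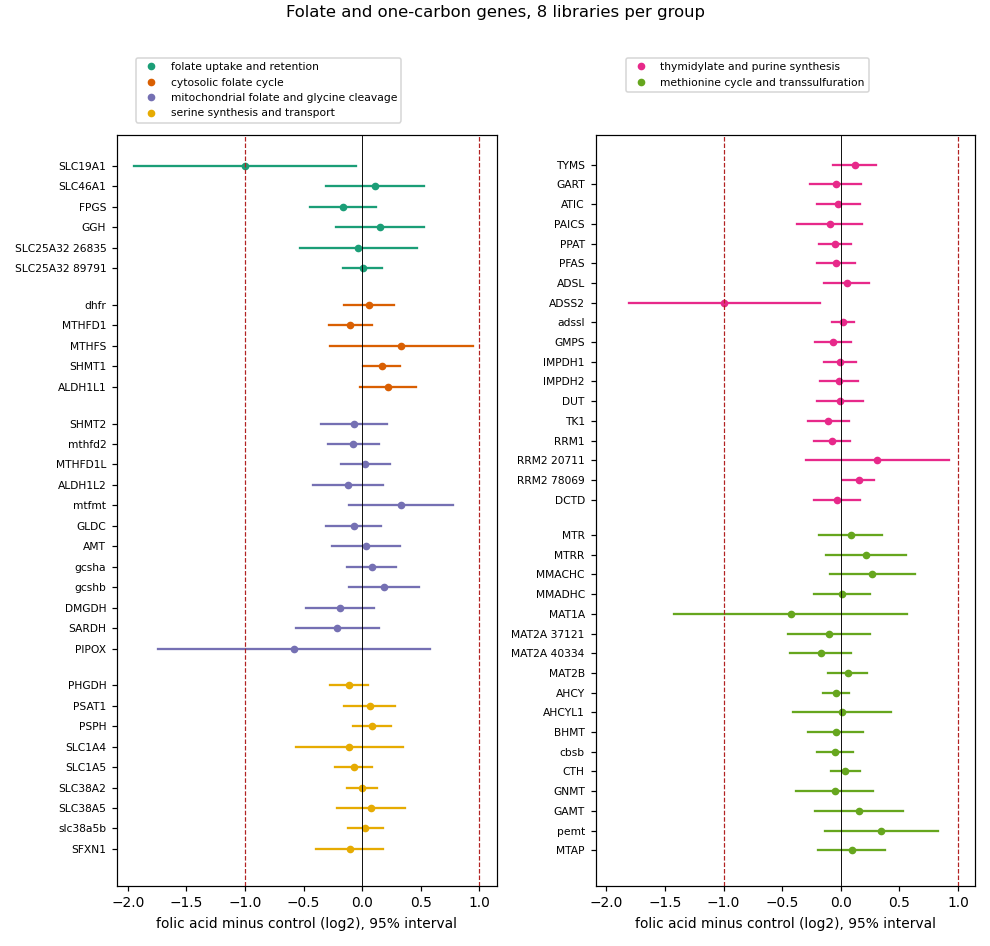
Log2 difference, folic acid minus control, with its 95% interval for folate and one-carbon genes, 8 libraries per group, with dashed lines at a 2-fold change. The intervals of SLC19A1, PIPOX, ADSS2 and MAT1A reach past these lines, and those of the other genes shown do not.

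Neural patterning genes, the theme in the series title, had a median half-width of 0.36 as a pool, against 0.31 over all genes. It was 0.94 in the Hox and Cdx list and 0.22 to 0.37 in the other lists of the pool. Of 160 neural list genes, 123 were measured, 0 were called, and at an unadjusted p under 0.05 there were 3 higher and 3 lower. Their median difference was 0.013, and 95 of them (77.2%) were bounded within 2-fold, against 83.7% of all genes. The anterior neural plate and midbrain list had 22 measured genes, of which 20 were bounded within 2-fold and none passed the unadjusted test. The neural border, crest and placode list had 24, of which 21 were bounded within 2-fold. OTX2, a homeodomain factor of forebrain and midbrain, ran from 10.85 through 11.38 to 11.74 in control and from 10.91 through 11.61 to 11.83 in folic acid libraries, and its difference was 0.14 (-0.064 to 0.35). SOX3, a factor of neural progenitors, differed by -0.0051 (-0.12 to 0.11). NRARP (ENSDARG00000018958), a feedback regulator of the Notch pathway, differed by -0.21 (-0.37 to -0.050), and NOTCH3, a receptor of that pathway, by -0.18 (-0.37 to -0.0011), both with limma adjusted p = 0.72. The homeobox genes pbx1b, a Hox cofactor, and dlx4b, of the ectoderm border, differed by -0.45 (-0.80 to -0.11) and 1.54 (0.66 to 2.41). Both had limma adjusted p = 0.72 and were picked for a small p within their lists. Their Bonferroni intervals were -1.54 to 0.64 and -1.22 to 4.29. Levels of dlx4b were low, from 0.90 to 4.04 in control and from 2.22 to 5.40 in folic acid libraries. Without the last set, NRARP was at -0.12 and pbx1b at -0.23.

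The Hox and Cdx list, which sets position along the body axis, had the smallest share of genes bounded within 2-fold among the 31 lists, with a median half-width of 0.94 against 0.31 over all genes. Of 23 measured genes, 19 had a value above 0 with a median of 0.26, and 9 (39.1%) were bounded within 2-fold. Over all genes 49.9% had a value above 0. Without the last set the median of the list was 0.11, and 16 of the 23 had a value above 0. HOXB7, an axial Hox gene, differed by 0.62 (0.047 to 1.197), but unevenly between sets. The difference was largest in the first set, and was -0.0715, 0.411 and 0.646 in the later sets in title order. In the first set control replicates 1 and 2 were at 4.495 and 6.638, and folic acid replicates 1 and 2 at 7.122 and 7.013. The low value came from control replicate 1, which also stood apart on component 2. The gene hoxb6b, another axial Hox gene, ran from 0 through 3.09 to 5.38 in control and from 2.61 through 4.04 to 5.35 in folic acid libraries. The control libraries reached lower and the tops overlapped, with a difference of 1.48 (0.014 to 2.94). Control replicates 1, 5 and 8 lay at the floor of the values, at 0.17, 0 and 0.17. HOXB7 and hoxb6b had limma adjusted p = 0.72 and were picked for a small p within the list. The lowest difference of the list was that of hoxb1a, at -0.59 (-1.66 to 0.48). By set it was 1.09, -1.68, -2.15 and 0.37, and folic acid replicate 6 lay near the floor, at 0.17.

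Most genes of the signalling pathways that pattern the gastrula were bounded within 2-fold. Of the 27 BMP genes, 38 Nodal and mesendoderm genes, 30 Wnt genes and 26 FGF and MAPK genes, 26, 37, 29 and 26 were bounded within 2-fold. At an unadjusted p under 0.05 there was 1 BMP gene, 2 Nodal genes and 2 Wnt genes, all lower in folic acid embryos, and no FGF gene. Over all genes 3.1% were lower and 3.41% higher at that threshold. With at most 2 genes in a list, the lists were not compared with these shares. LRP6, a Wnt co-receptor, differed by -0.13 (-0.26 to -0.0055), and BMPER, a secreted regulator of BMP signals, by -0.22 (-0.42 to -0.017), or -0.11 without the last set. LRP6 and BMPER had limma adjusted p = 0.72 and were picked for a small p within their lists. Their Bonferroni intervals were -0.531 to 0.266 and -0.855 to 0.416. The gene tbxta, the T-box factor of mesoderm and notochord, differed by 0.012 (-0.13 to 0.16). Other T-box genes lay lower. TBXT (ENSDARG00000039806) differed by -0.30 (-0.57 to -0.025), or -0.18 without the last set, and tbx16 by -0.12 (-0.23 to -0.0044). These 2 also had limma adjusted p = 0.72 and were picked for a small p. In the Nodal and mesendoderm list, 22 of 38 genes had a value above 0.

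Stress and damage lists had 0 called members. All 36 cell cycle genes were bounded within 2-fold, as were 22 of 23 genes of the p53 and DNA damage list, 28 of 30 heat shock and unfolded protein genes, 19 of 22 oxidative stress genes and 13 of 13 xenobiotic metabolism genes. NQO1, a quinone reductase of the oxidative stress response, ran from 10.91 through 11.04 to 11.14 in control and from 11.06 through 11.14 to 11.39 in folic acid libraries. Its difference, 0.13 (0.0036 to 0.25), had the same sign in 4 of 4 sets, with limma adjusted p = 0.72. A difference of the same sign in all sets held for 13.2% of all genes. NQO1 was picked for a small p within its list, which itself favours such agreement. The gene ahr2, the aryl hydrocarbon receptor that senses many foreign compounds, differed by -0.37 (-0.71 to -0.027, limma adjusted p = 0.72). It was likewise picked for a small p within its list. In the xenobiotic list, 1 of 13 genes had a value above 0, and 6 of 13 without the last set.

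Of the 607 genes measured across all 31 lists, 15 were higher and 18 lower at an unadjusted p under 0.05, and 537 (88.5%) were bounded within 2-fold. The 10 genes of smallest p in the upper 75% by level were not called and are given as a description. The gene ccndx, a D-type cyclin, had the smallest p. It ran from 3.67 through 6.75 to 7.56 in control and from 5.97 through 7.20 to 8.34 in folic acid libraries, and the ranges overlapped, but within each set the folic acid mean was the higher one. The difference was 0.91 (0.49 to 1.33, limma adjusted p = 0.72). A same sign in all 4 sets was found for 13.2% of all genes. The gene ccndx was picked for its small p, which itself favours such agreement, so the share is no test of it. MFSD4B, a membrane transporter, ran from 5.81 through 6.16 to 6.546 in control and from 6.563 through 6.74 to 7.26 in folic acid libraries. The groups narrowly did not overlap, with a difference of 0.66 (0.34 to 0.98, limma adjusted p = 0.72). MFSD4B too was picked for its small p, which itself favours such a separation. The share of all genes without overlap was not counted, so the separation is a description only. CHD1L, a chromatin remodeller, ran from 7.72 through 7.96 to 8.27 in control and from 7.08 through 7.63 to 7.81 in folic acid libraries, a slight overlap, with a difference of -0.46 (-0.69 to -0.24). KLF12, a zinc-finger factor, had the largest difference of the 10, at 3.71 (1.87 to 5.55), with control libraries from 0.90 to 7.58 and folic acid libraries from 5.47 to 11.77. Its range was also wide in the other groups, from 3.05 to 12.04 in retinoic acid and from 2.81 to 8.87 in valproic acid libraries. Of the other 6, rsrp1 and SERPINH1 (ENSDARG00000019949), a collagen chaperone, had differences above 0, and NF1 (ENSDARG00000004184), a Ras regulator, TRIM8 (ENSDARG00000060729), ABCA1 and cspg4ba below.

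In the same type of fit, 186 genes (1.18%) were called for retinoic acid against control, and 5692 (36.2%) for valproic acid against control. These comparisons share the control libraries with folic acid, and no dose is given for any compound. Genes called for a compound were chosen by its own difference in these libraries, so its median below is raised by that choice. For the 186 retinoic acid genes the median absolute difference was 0.92 with retinoic acid and 0.11 with folic acid, beside 0.12 over all genes. The folic acid interval lay within 2-fold for 144 of them (77.4%) and within 0.5 on the log2 scale for 98 (52.7%), shares below the 83.7% and 55.3% of all genes. For the 5692 valproic acid genes the medians were 0.58 and 0.11, and the folic acid interval lay within 2-fold for 5078 (89.2%). Compared directly, 230 genes (1.46%) were called between folic acid and retinoic acid, 57 higher and 173 lower with folic acid. Between folic acid and valproic acid 5320 genes (33.9%) were called, 2593 higher and 2727 lower with folic acid.

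CYP26A1, the enzyme that breaks down retinoic acid and a target of its receptors, ran from 12.67 through 12.93 to 13.03 in control and from 12.87 through 12.96 to 13.12 in folic acid libraries. Folic acid minus control was 0.056 (-0.061 to 0.17), retinoic acid minus control was 1.52, and folic acid minus retinoic acid was -1.46 (limma adjusted p = 3.73e-12). DHRS3 (ENSDARG00000044803), which reduces retinal and so lowers retinoic acid synthesis, differed from control by -0.063 (-0.23 to 0.11) with folic acid and by 1.06 with retinoic acid. Folic acid minus retinoic acid was -1.13 (limma adjusted p = 5.58e-08). The gene hoxb1b, a hindbrain Hox gene that responds to retinoic acid, differed from control by 0.059 (-0.26 to 0.38) with folic acid, 1.55 with retinoic acid and -1.08 with valproic acid. Folic acid differed from both, by -1.49 (limma adjusted p = 1.96e-07) and 1.14 (limma adjusted p = 0.000492). The readout genes hoxb1a and DHRS3 (ENSDARG00000044982) had wider intervals with folic acid, at -0.59 (-1.66 to 0.48) and -0.24 (-0.99 to 0.50). Thus hoxb1a was not bounded within 2-fold. For this DHRS3 copy, control replicates 5 and 6 were both at 0.90 and folic acid replicates 5 and 6 both at 0.17, near the floor. DUSP6, a feedback phosphatase of the FGF and MAPK pathway, differed from control by 0.0055 (-0.099 to 0.11) with folic acid and by 0.65 with retinoic acid, and folic acid minus retinoic acid was -0.64 (limma adjusted p = 1.97e-06). HDAC1, a histone deacetylase, was bounded at -0.010 (-0.10 to 0.083) with folic acid, and folic acid minus valproic acid was -0.045 (limma adjusted p = 0.498). The gene tiparp, a target of the aryl hydrocarbon receptor, differed from control by -0.038 (-0.16 to 0.086) with folic acid, 0.62 with retinoic acid and -0.50 with valproic acid. Folic acid minus retinoic acid was -0.66 (limma adjusted p = 5e-06), and folic acid minus valproic acid was 0.47 (limma adjusted p = 0.00016).

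**Figure D4:**
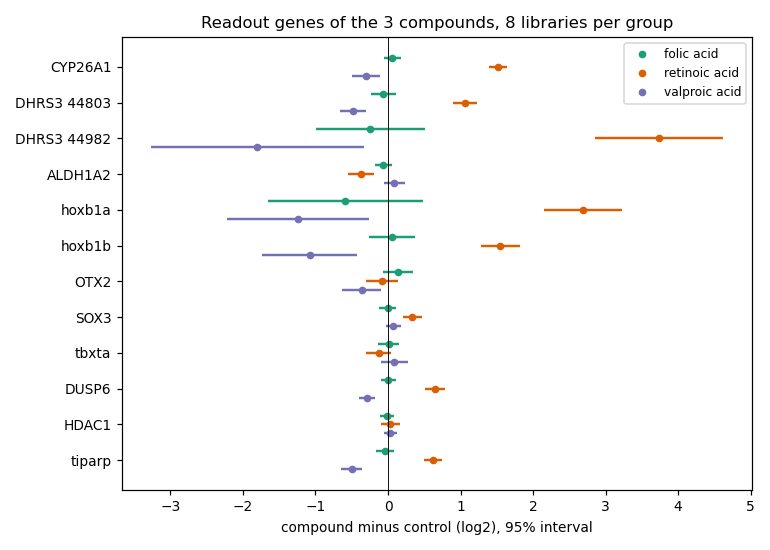
Log2 difference from control with its 95% interval for the readout genes under folic acid, retinoic acid and valproic acid, 8 libraries per group. CYP26A1 lies at 0.056 with folic acid and at 1.52 with retinoic acid.

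The size of the difference was uneven between sets. The median absolute difference was 0.17, 0.22, 0.16 and 0.28 in the 4 sets in title order. Of genes with a mean level of at least 5, the number whose difference reached 2-fold was 172, 185, 125 and 556, and in the last set 393 of the 556 were lower with folic acid. In that set the median absolute difference between the folic acid duplicates was 0.37, against 0.21 between its control duplicates and 0.22 to 0.31 between folic acid duplicates of the other sets. The part of depth in this was not tested. The set accounted for 36.1% of the variance in the 16 libraries on 3 degrees of freedom, and the group for 6.05% on 1. The residual held 57.8%, or 5.26% per degree of freedom, so the folic acid share was near the residual level. With retinoic acid and valproic acid in place of folic acid, the group's share was 8.65% and 25.3%. The residual per degree of freedom was then 5.18% and 4.34%.

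A single gene, 1 of 15710 (0.00637%), was called for a folic acid effect that differed between sets, in limma with Benjamini-Hochberg adjustment. It was RRM2 (ENSDARG00000020711), a ribonucleotide reductase subunit that supplies DNA precursors, and it is named because of this call (adjusted p = 0.0129). Its difference was -0.71, 0.046, -0.34 and 2.25 in the 4 sets. In the last set the control libraries were at 7.92 and 8.39, the folic acid libraries at 10.18 and 10.63, the retinoic acid libraries at 9.96 and 10.10, and the valproic acid libraries at 8.73 and 9.85. In the other sets all libraries of all groups lay between 10.93 and 12.66, so every library of the last set was below them. Over all sets the difference was 0.31 (-0.30 to 0.92), and the call was lost without control replicate 7 (adjusted p = 0.264), without folic acid replicate 8 (adjusted p = 0.209), without the first set (adjusted p = 0.0523) and without the intensity trend of limma (adjusted p = 0.507). A second gene that the table names RRM2 (ENSDARG00000078069) was at 13.58 ± 0.23 (SD, n = 8) in control and 13.73 ± 0.23 (SD, n = 8) in folic acid libraries, a difference of 0.15 (0.020 to 0.29). How the authors' counting treated reads shared between these genes is not given in the sources used, and its part in the result was not tested.

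**Figure D5:**
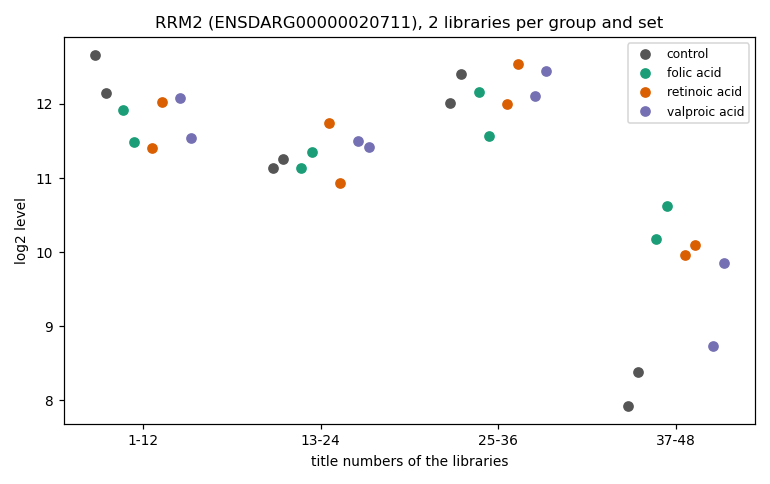
Log2 level of RRM2 (ENSDARG00000020711) in all 32 libraries, 2 per group and title-number set, with 1 color per group. In the set 37 to 48 the control libraries, at 7.92 and 8.39, are the lowest, and all libraries of the other sets lie at 10.93 or above.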

How the data were processed

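The authors deposited normalized expression as log2 values for 15710 Ensembl genes, 1 column per library, from 0 to 19.4. Per the submitters' processing notes, the tools include HTSeq 0.11.0 and limma, and the build is GRCz11. How reads were aligned, annotated, filtered and normalized is not given in the sources used. The distributions of the libraries are nearly equal, so a change in total RNA, or of most genes in one direction, could not be seen, and no read totals can be had. The sources used do not say whether the values are scaled to gene length. Levels of different genes were therefore used only to group genes by level.

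Differences were fitted with limma 3.58.1 in R 4.3.3, with the set and the group as terms, the 16 libraries, empirical Bayes with an intensity trend, no filter, and Benjamini-Hochberg adjustment over 15710 genes. Genes with an adjusted p under 0.05 were called, and the intervals are 95% intervals of the same fit. The members and lists were chosen with earlier results of these data known. The fit was tested on simulated data.

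Symbols come from a table of gene names for 15016 identifiers. Of 751 list genes 598 matched, 218 exactly, 248 ignoring case and 132 with the letter of a paralog removed, and such a name can stand for either paralog. The gene dld was left unmatched after its values had been seen, since DLD is also the symbol of an unrelated enzyme. Named genes are the 10 of smallest p in the upper 75% by mean level, the folate and readout genes, and the 2 members of smallest p of each other list, of which a selection is printed. Some genes that the rule names are left out here. RRM2 (ENSDARG00000020711) falls outside that rule.

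Libraries of the same set deviated together with correlations of 0.091, 0.413, 0.542 and 0.403. Between different sets the correlations ran from -0.38 to 0.163. The first same-set value is under 0.1, so the numbers are not shown to pair the samples in every set. The block was kept because it was the stated design. Alternatives were no trend, robust empirical Bayes, no block, all 32 libraries, duplicate means, centring, a minimum level of 5, array weights, and leaving out each set or library.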

Additional observations from a re-analysis of the deposited data

Results flagged for a closer look

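The effect of folic acid on RRM2 (ENSDARG00000020711) differed between the title-number sets, with limma adjusted p = 0.0129, and the values by set are given in the report.

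The 220 tests covered named genes and library measures, each within a group. In 6 of them, all for genes, 1 library stood apart from the other 7 of its group. The gap was more than 0.526 of the range, and chance flags about 1 in 20. HDAC1 was highest in control replicate 8, at a log2 level of 14.583. GADD45G (ENSDARG00000019417), a stress-inducible gene, was highest in folic acid replicate 8, at 10.127. MAT2A (ENSDARG00000040334) was lowest in folic acid replicate 8, at 11.701. LSS, lanosterol synthase, was lowest in control replicate 4, at 1.729. SRXN1, sulfiredoxin, was lowest in control replicate 8, at 3.034. MTHFS was lowest in folic acid replicate 2, at 4.65.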

How the results depend on the processing

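No gene was called for folic acid against control in any of the 30 alternatives. Genes bounded within 2-fold numbered 12090 to 13315, and within 0.5 on the log2 scale 7189 to 9348. Genes with an unadjusted p under 0.05 numbered 507 with all 32 libraries and no replicate block, 1943 without set 1, 660 without set 2, 400 without set 4, and 583 to 1651 leaving out 1 library at a time. No named gene was called for folic acid against control in any alternative, and the smallest adjusted p was 0.0672. With no replicate block in place of the block, 702 genes had an unadjusted p under 0.05 and 12716 were bounded within 2-fold, and genes called for retinoic acid against control numbered 112, and for folic acid against retinoic acid 148, and with all 32 libraries and no replicate block 115 and 136. With duplicate means, 99 genes were called for retinoic acid and 3718 for valproic acid against control. With array weights, 333 were called for retinoic acid against control and 395 for folic acid against retinoic acid. Leaving out a set gave 108 without set 3 and 99 without set 4 for retinoic acid against control, and 153, 124 and 145 without sets 1, 3 and 4 for folic acid against retinoic acid. The difference between sets was called in 0 genes without the trend, without set 1 and without set 4, and in 0 to 6 genes leaving out 1 library. It could not be fitted without the block or with duplicate means. The cause of these changes was not tested. Of the direct tests, SOX3 against retinoic acid and hoxb1b against valproic acid each lost the call in 1 alternative, and ALDH1A2 and DHRS3 (ENSDARG00000044982) gained one in 6 and 2. Without set 4, OTX2 was at 0.043, MAT2A (ENSDARG00000040334) at -0.034, PIPOX at -0.27 and MTHFS at 0.57. Intervals were widest for low genes, and the part of depth was not tested.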
